A study of Homo sapiens with 12 samples.

Results

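The subject is 9 genes of the MHC class I pathway in MDA-MB-231 cells: the heavy chains HLA-B, HLA-C and HLA-E, their shared light chain B2M, the peptide transporter subunits TAP1 and TAP2, the loading factor TAPBP, the immunoproteasome subunit PSMB9 and the transcriptional regulator NLRC5. They were found by symbol among the 57773 genes of the count table, and all 9 were among the 20571 genes tested. TAP2 stands in 2 rows of the table, and the row with the higher summed count was taken. MDA-MB-231 is an established cell line from a human triple-negative breast tumour and was cultured in DMEM with serum. There were 3 untreated libraries (CTL, numbered 1 to 3), 3 from cells given TGFβ (4 to 6), 3 from cells given alisertib (7 to 9) and 3 from cells given both agents (Combination, 10 to 12). Treatment lasted 48 h, and doses are not given in the sources used here. TGFβ is a cytokine whose receptors act through SMAD factors, and alisertib blocks Aurora A, a kinase of mitosis. A single cell line was used, so the results are those of 1 line. Separate cultures are not stated in the labels, and p-values therefore measure only the spread between these libraries, which may be technical.

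MHC class I molecules carry short peptides from the inside of a cell to its surface, where CD8 T cells read them. Peptides are cut by the proteasome, pumped into the endoplasmic reticulum by the TAP1 and TAP2 heterodimer, and loaded onto a heavy chain paired with B2M inside a complex that tapasin (TAPBP), calreticulin (CALR) and the thiol oxidoreductase PDIA3 hold together. Under interferon the catalytic proteasome subunits are exchanged for inducible ones, PSMB9 for PSMB6, PSMB8 for PSMB5 and PSMB10 for PSMB7. NLRC5 is the coactivator of class I genes, as CIITA is of class II genes. It has no DNA binding of its own at these promoters and is recruited by RFX, CREB family and NF-Y factors on an X and Y box module. Beside that module class I promoters carry an interferon-stimulated response element (ISRE) and a κB element. HLA-E is a non-classical heavy chain that presents leader peptides of other class I chains to receptors of NK cells.

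The promoter windows of 6 members are printed to show which of those elements each one holds: the 5 members called with TGFβ, and HLA-B, a heavy chain that was not called, for the class I arrangement. The windows are the 250 bases before the transcription start, from RefSeq on GRCh38.p14, 5′ to 3′ on the strand of the gene. This build differs from that of the counts, hg19. Of the 9 members 7 were in the RefSeq table, which lists TAP1 with a further start, and the first TAP1 row is shown. HLA-E and NLRC5 were not matched. Capitals mark the matches, on either strand, of TGACG (the core of the X2 box and of CREB sites), CCAAT (the Y box), GAAANNGAA or GAANNGAAA (an ISRE core), TTCNNNGAA (a GAS site) and GGGANTNNC (a κB site).
HLA-B, chr6:31357180-31357429, minus strand: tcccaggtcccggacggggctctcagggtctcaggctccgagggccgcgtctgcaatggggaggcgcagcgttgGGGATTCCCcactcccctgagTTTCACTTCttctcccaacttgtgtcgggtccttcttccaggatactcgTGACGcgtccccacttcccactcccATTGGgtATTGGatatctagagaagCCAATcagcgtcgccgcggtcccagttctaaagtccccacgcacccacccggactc
B2M, chr15:44711267-44711516, plus strand: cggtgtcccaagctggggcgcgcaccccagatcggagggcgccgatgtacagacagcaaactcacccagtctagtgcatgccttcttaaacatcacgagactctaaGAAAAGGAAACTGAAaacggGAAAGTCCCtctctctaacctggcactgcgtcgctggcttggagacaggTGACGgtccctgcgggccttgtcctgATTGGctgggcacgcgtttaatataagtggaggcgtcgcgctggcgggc
TAP1, chr6:32853705-32853954, minus strand: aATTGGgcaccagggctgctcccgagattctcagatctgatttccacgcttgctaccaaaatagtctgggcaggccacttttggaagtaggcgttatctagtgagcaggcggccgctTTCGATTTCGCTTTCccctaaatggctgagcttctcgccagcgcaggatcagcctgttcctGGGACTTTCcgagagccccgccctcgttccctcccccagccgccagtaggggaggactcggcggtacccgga
PSMB9, chr6:32853942-32854191, plus strand: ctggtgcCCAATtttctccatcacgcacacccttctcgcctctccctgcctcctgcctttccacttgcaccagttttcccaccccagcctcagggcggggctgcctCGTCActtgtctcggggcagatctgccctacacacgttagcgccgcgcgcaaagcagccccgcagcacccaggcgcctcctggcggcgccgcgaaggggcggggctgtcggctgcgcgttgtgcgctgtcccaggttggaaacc
TAP2, chr6:32838740-32838989, minus strand: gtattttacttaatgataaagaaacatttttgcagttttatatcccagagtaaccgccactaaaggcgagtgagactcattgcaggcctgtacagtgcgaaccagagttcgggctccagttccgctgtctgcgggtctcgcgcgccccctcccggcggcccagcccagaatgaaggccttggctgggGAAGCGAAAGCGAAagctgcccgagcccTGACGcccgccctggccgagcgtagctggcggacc
TAPBP, chr6:33314079-33314328, minus strand: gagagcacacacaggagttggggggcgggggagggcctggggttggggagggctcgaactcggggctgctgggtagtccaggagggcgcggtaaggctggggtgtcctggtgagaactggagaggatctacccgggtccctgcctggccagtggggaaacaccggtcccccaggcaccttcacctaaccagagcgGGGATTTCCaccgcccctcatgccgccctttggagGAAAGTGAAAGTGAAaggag

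Of all 35116 RefSeq windows of this length, 21.2% held TGACG, 32% CCAAT, 12.4% the ISRE core, 13.2% the κB form and 6.57% the GAS form. The HLA-B window held the whole class I arrangement in order: κB from -176 to -168, the ISRE core from -155 to -147, TGACG from -106 to -102 and 3 CCAAT boxes nearer the start. HLA-C held κB from -172 to -164, the ISRE core from -151 to -143 and TGACG from -105 to -101, with 3 of its 4 CCAAT matches nearer the start and 1 before the κB match, from -192 to -188. TAP1 and PSMB9 are transcribed away from each other with 487 bases between their starts, so that their windows overlap by 13 bases and share 1 CCAAT box. In the TAP1 window 2 overlapping ISRE cores lay from -133 to -119 and a κB match from -72 to -64, and the PSMB9 window held neither. TAP2 held 2 overlapping ISRE cores from -63 to -50 and a TGACG. TAPBP held 2 overlapping ISRE cores from -20 to -6, directly before the start, and a κB match from -55 to -47. B2M held 2 overlapping ISRE cores from -144 to -130, 1 κB match, 1 TGACG and 1 CCAAT. The matches describe letters in a window, and no binding was measured in these libraries.

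Total counts were 93701658 to 120619368 per library. The members drew from 1272 counts, for PSMB9 in Combination 10, to 89950, the highest count of B2M, so counting error is small beside the spread between libraries. Along the GC content of genes 1 library per group departed from the others: CTL 1, TGFB 6, ALIS 9 and Combination 10. These 4 libraries were below both partners in 4 of 4 groups for HLA-B, HLA-E, TAP1, TAPBP, PSMB9 and NLRC5, in 3 for HLA-C and in 2 for TAP2. For B2M, the member of lowest GC content (40.6%, against 46.9% to 62.7% in the others), they were above both partners in 4 of 4. The size of the departure did not follow GC content in all members. PSMB9, at 46.9% and below the median of tested genes (48.1%), departed by -0.21 on the log2 scale on average, and HLA-C, at 62.7%, by -0.11. For HLA-B the departure in ALIS 9 was only -0.006. ALIS 9 stood apart less clearly: over all genes ALIS 8 differed about as much from ALIS 7 as from ALIS 9 (chi-square per gene 9.24 and 10.8). In size its departure was under the spread of its partners for B2M (0.055 against 0.066 on the log2 scale) and TAP2 (-0.045 against 0.146). NLRC5 deviated most, by -0.29 on the log2 scale on average over the 4 libraries, and calls that change without these libraries are given beside the results. The 4 libraries were picked for their departure in these same data, so leaving them out narrows the spread within groups. Calls over all genes then rose from 7940 of 20571 tested to 9392 of 20711 for TGFβ against CTL. Calls gained in that setting are therefore no independent support. Cell type markers were read as a rough check, which does not identify the line. Of these, 8 of 10 leukocyte markers and 3 of 4 endothelial markers stayed under 1 CPM. The 5 markers of mesenchymal-like breast cancer lines (VIM, CD44, AXL, CAV1 and EGFR) summed to 4619 to 5784 CPM. With TGFβ 3 of the 5 rose, VIM from 1230 to 2036 CPM on average, with CD44 and EGFR, and 2 fell. AXL went from 938 to 633 CPM and CAV1 from 931 to 578 CPM. The summed leukocyte markers were 45.7 to 60.6 CPM in CTL and 72.6 to 80.8 CPM with TGFβ. Of the 5 tested 1 rose, CD68, from 52.9 ± 7.79 to 76.3 ± 4.57 CPM (mean ± SD, n = 3), and 2 fell, CD14 and LYZ. Summed luminal markers, of which ESR1, PGR and FOXA1 stayed under 1 CPM, were 154 to 219 CPM in CTL and 218 to 283 CPM with TGFβ. Of the 4 tested 1 rose, KRT19, from 106 ± 24.7 to 171 ± 27.9 CPM, and 2 fell, GATA3 and EPCAM. The part of these markers in the results was not tested.

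Class I chains were abundant in untreated cells. On a scale per gene length (RPKM from the scaled counts), the level in CTL was 266 for B2M, 134 for HLA-B, 68.8 for HLA-E, 53.4 for HLA-C, 26.8 for TAPBP, 24.3 for TAP2, 16.7 for TAP1, 5.94 for PSMB9 and 2.23 for NLRC5. In CTL each gene was clear of its neighbour in that order in every library, except that TAPBP and TAP2 overlapped. With TGFβ TAPBP rose clear of TAP2 (37.2 against 18.8 RPKM), and with alisertib alone their means stood the other way round (23.5 against 25.5 RPKM) with overlapping libraries. HLA-E and HLA-C overlapped in the TGFB group only. HLA-B stood at 2.51 ± 0.0903 times HLA-C in CTL and 2.35 ± 0.0965 times with TGFβ (RPKM ratio, mean ± SD, n = 3), and the libraries of the 2 groups overlapped.

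TGFβ alone lowered the transporter and immunoproteasome members and raised TAPBP, while the heavy chains did not move past the test. Against untreated cells 5 of 9 members were called, 1 higher and 4 lower, at an adjusted p under 0.05 in the quasi-likelihood test of edgeR, adjusted by Benjamini-Hochberg over all tested genes. Over all tested genes 38.6% were called in this comparison, 18.5% higher and 20.1% lower, and the members' count is to be read against that share. The median log2 fold change of the 9 members was -0.15, beside -0.01 over all tested genes. In bulk RNA a change in the share of cells that express a gene and a change in RNA per cell cannot be told apart.

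**Figure D1:**
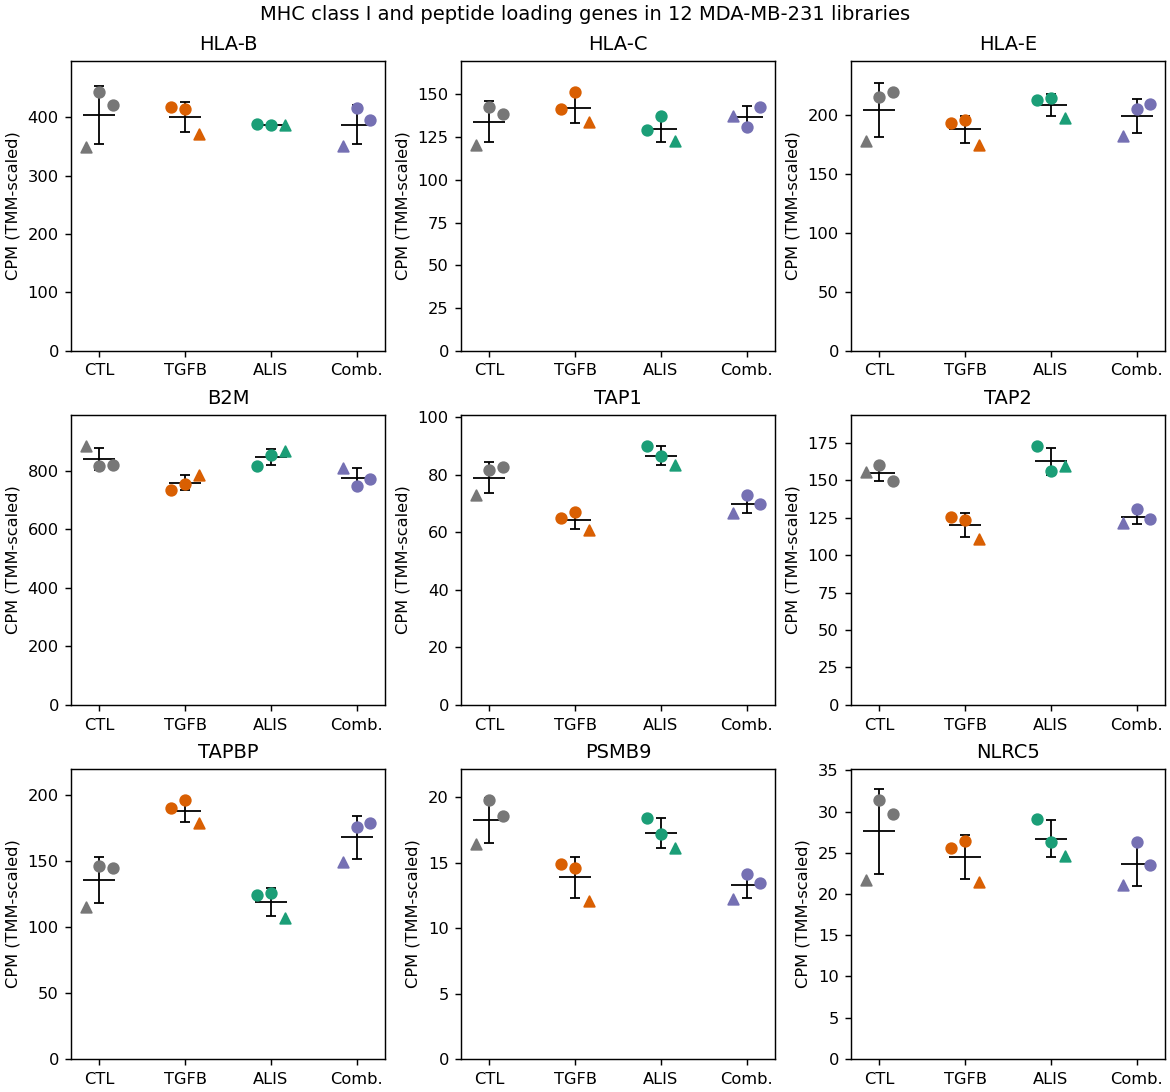
Levels of the 9 genes in every library, in CPM scaled by TMM factors (y axis from 0), by treatment group (x axis). Points are libraries, triangles are the 4 libraries that stand apart (CTL 1, TGFB 6, ALIS 9, Combination 10), and bars are the mean ± SD of 3 libraries. TAP1, TAP2 and PSMB9 are lower, and TAPBP higher, in all 3 TGFB libraries than in all 3 CTL libraries.

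The heavy chains bind peptide. HLA-B was 349, 443 and 420.5 CPM in CTL libraries 1 to 3 and 418, 415 and 372 CPM in TGFB libraries 4 to 6. The groups overlapped, with a log2 fold change of -0.01 ± 0.08 (SE) and an interval from -0.19 to 0.17. HLA-C was 121, 143 and 139 CPM in CTL and 141, 151 and 134 CPM with TGFβ, also overlapping (log2 fold change 0.09 ± 0.07, edgeR adjusted p = 0.361). HLA-E was 179, 216 and 220 CPM in CTL and 193, 196 and 175 CPM with TGFβ, with a log2 fold change of -0.12 ± 0.08 (edgeR adjusted p = 0.249). CTL 1 was the lowest CTL library for all 3 chains. Without it HLA-E fell by 0.21 on the log2 scale (edgeR adjusted p = 0.0172), and without the 4 libraries that stand apart by 0.16 (adjusted p = 0.000349). With an offset for GC content and gene length HLA-B fell by 0.20 and HLA-E by 0.20 (adjusted p = 0.00023 and 0.000245), while HLA-C turned to -0.20 without a call (adjusted p = 0.251) and reached none under any alternative tried. That offset also takes out GC and length trends that differ between the treatment groups. It called 9569 of 20571 tested genes in this comparison, against 7940 in the main fit.

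The HLA heavy chain genes are alike in sequence, and how reads that fit several of them were counted is not given in the sources used here, so the split between them is uncertain.

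B2M, the light chain without which heavy chains do not reach the surface, was 883, 815 and 821 CPM in CTL and 735, 754 and 786 CPM with TGFβ. All TGFB libraries lay below all CTL libraries. The fall of 0.15 ± 0.05 on the log2 scale (edgeR adjusted p = 0.0296) is the smallest of the called ones. It lost its call in 7 of 20 alternatives, among them DESeq2 (adjusted p = 0.065), the fit without CTL 1 (0.0791), without TGFB 4 (0.124), without TGFB 5 (0.0879) and the GC and length offset, where it was -0.05 (0.198).

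TAP1 and TAP2 together form the peptide pump. TAP1 was 72.9, 81.5 and 82.5 CPM in CTL and 64.9, 67.1 and 60.8 CPM with TGFβ. TAP2 was 155, 160 and 150 CPM in CTL and 126, 124 and 111 CPM with TGFβ. For both genes the 2 groups of libraries did not overlap. TAP1 fell by 0.30 ± 0.06 (fold 0.81, 95% interval 0.744 to 0.889, edgeR adjusted p = 0.00109) and TAP2 by 0.37 ± 0.06 (fold 0.775, 0.711 to 0.844, adjusted p = 0.00013). The ratio of TAP1 to TAP2 per length was 0.686 ± 0.0549 in CTL and 0.72 ± 0.0226 with TGFβ (mean ± SD), with overlapping libraries (exact permutation p = 0.5). TAP1 kept its call in 20 of 20 alternatives. TAP2 kept it in 20 of 21. The exception was the gene's other row in the table, a longer model that overlaps the first and held 84377 counts against 178323: its log2 fold change was -0.18 (edgeR adjusted p = 0.201).

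PSMB9, the inducible subunit that takes the place of PSMB6, was the second least abundant member per gene length. It was 16.4, 19.8 and 18.6 CPM in CTL and 14.9, 14.6 and 12.1 CPM with TGFβ, without overlap. It fell by 0.40 ± 0.10 (fold 0.76, 95% interval 0.658 to 0.878, edgeR adjusted p = 0.00462) and stayed called in 20 of 20 alternatives. Per length PSMB9 stood at 0.0576 ± 0.00136 of its constitutive counterpart PSMB6 in CTL and at 0.0393 ± 0.00199 with TGFβ (mean ± SD, n = 3). The 2 sets of ratios did not overlap, and the exact permutation p of 0.1 is the smallest that 3 libraries against 3 can give. The gene model of PSMB9 spans that of TAP1 and also overlaps those of PSMB8 and the transcript TAPSAR1. The library kit does not mark the strand, so reads cannot be assigned to one of them where their exons overlap. The values of these genes may therefore not be fully separate.

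TAPBP encodes tapasin, which bridges the peptide transporter and the waiting heavy chain. It moved against the rest of the called members. It was 115, 146 and 145 CPM in CTL and 190, 196 and 179 CPM with TGFβ, so that the lowest TGFB library exceeded the highest CTL library. It rose by 0.48 ± 0.09 on the log2 scale (fold 1.39, 95% interval 1.21 to 1.60, edgeR adjusted p = 0.00106) and kept its call in 20 of 20 alternatives, at 0.30 with the GC and length offset. Per length TAPBP went from 1.6 ± 0.107 times TAP1 in CTL to 2.75 ± 0.00807 times with TGFβ, without overlap (exact permutation p = 0.1). Of the libraries that stand apart, CTL 1, ALIS 9 and Combination 10 had the lowest ratio of their groups (1.48, 1.20 and 2.10).

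NLRC5, the coactivator, had the lowest level per length of the 9 genes. It was 21.8, 31.4 and 29.7 CPM in CTL and 25.6, 26.4 and 21.4 CPM with TGFβ. The groups overlapped, with CTL 1 the lowest CTL library (log2 fold change -0.17 ± 0.13, edgeR adjusted p = 0.31). Without CTL 1 it was -0.32 (adjusted p = 0.0299), without the 4 libraries that stand apart -0.23 (0.00302) and with the GC and length offset -0.36 (8.23e-06). The offset called 9569 of 20571 tested genes, against 7940 in the main fit. With all 12 libraries the data therefore give no call for NLRC5, and 3 of 20 alternatives do.

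**Figure D2:**
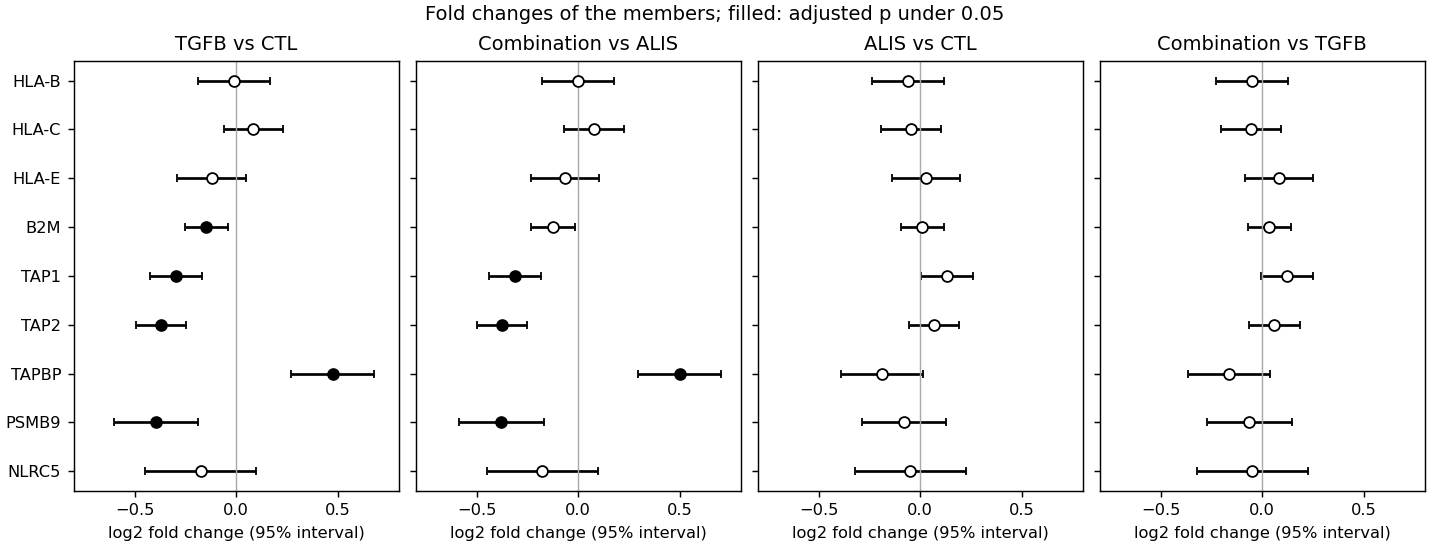
Log2 fold changes of the 9 genes (points) with their 95% intervals (bars) in 4 comparisons from 1 edgeR fit (x axis, log2 scale), filled where the adjusted p is under 0.05. The 2 panels on the left, TGFβ against untreated and TGFβ with alisertib against alisertib alone, both show TAP1, TAP2 and PSMB9 lower and TAPBP higher, and the 2 alisertib panels on the right hold no filled point.

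The effect of TGFβ was measured a further time in cells that also had alisertib, by comparing Combination with ALIS. This comparison has no library in common with TGFβ against CTL, though both take their spread from the same fit. Of the 9 members 4 were called, 1 higher and 3 lower, where 38.4% of all tested genes were called, 19.4% higher and 19% lower. TAP1 was 89.8, 86.4 and 83.5 CPM in ALIS and 66.7, 73 and 69.8 CPM in Combination, without overlap (log2 fold change -0.31 ± 0.06, edgeR adjusted p = 0.000848). TAP2 went from 173, 156 and 159 CPM to 121, 131 and 124 CPM (-0.38 ± 0.06, adjusted p = 0.000119). Both transporter subunits thus fell by about as much as without alisertib.

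PSMB9 went from 18.4, 17.2 and 16.1 CPM in ALIS to 12.3, 14.1 and 13.4 CPM in Combination (log2 fold change -0.38 ± 0.10, edgeR adjusted p = 0.00667), again without overlap. With the GC and length offset it was -0.29 (adjusted p = 0.0531). TAPBP went from 124, 126 and 107 CPM to 149, 176 and 179 CPM, a rise of 0.50 ± 0.09 (fold 1.41, 95% interval 1.23 to 1.63, edgeR adjusted p = 0.000789) and the largest change among the members in this comparison. B2M was 816, 854 and 867 CPM in ALIS and 810, 746 and 772 CPM in Combination: no libraries overlapped, and the log2 fold change of -0.12 ± 0.05 missed the threshold (edgeR adjusted p = 0.0625), which 8 of 20 alternatives passed, among them the fits without CTL 1, CTL 2, CTL 3, ALIS 7 or Combination 10 (adjusted p from 0.0227 to 0.0437) and that without the 4 libraries that stand apart (-0.14, 0.00135). The heavy chains overlapped, at -0.00 ± 0.08 for HLA-B, 0.08 ± 0.07 for HLA-C and -0.06 ± 0.08 for HLA-E. With the GC and length offset HLA-B was called at -0.21 (edgeR adjusted p = 0.000154) and HLA-E at -0.13 (adjusted p = 0.0082), and HLA-C turned to -0.23 without a call (adjusted p = 0.201). NLRC5 was -0.18 ± 0.13 (edgeR adjusted p = 0.305). It was called under that offset at -0.41 (adjusted p = 1.73e-06) and at -0.16 without the 4 libraries (adjusted p = 0.0343). Over all tested genes these settings called 9358 of 20571 and 10098 of 20711, against 7901 in the main fit.

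Whether alisertib changed the response to TGFβ was tested by the interaction. No member was called, by edgeR or by DESeq2, and none had an unadjusted p under 0.05, where 0.282% of all tested genes were called. The intervals of the difference bound it: from -0.19 to 0.17 on the log2 scale for TAP1, -0.18 to 0.17 for TAP2, -0.26 to 0.31 for TAPBP and -0.28 to 0.31 for PSMB9. For NLRC5, the noisiest member, the interval ran from -0.39 to 0.39.

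Alisertib alone moved no member past the test. Against CTL 0 of 9 were called by edgeR and by DESeq2, where 6.74% of all tested genes were called (730 higher and 657 lower, or 769 and 455 with upper-quartile scaling). TAP1 alone had an unadjusted p under 0.05: its ALIS libraries, 89.8, 86.4 and 83.5 CPM, all lay above the highest CTL library, 82.5 CPM (log2 fold change 0.13 ± 0.06, edgeR adjusted p = 0.233). TAPBP was 124, 126 and 107 CPM with alisertib against 115, 146 and 145 CPM in CTL, overlapping, at -0.19 ± 0.09 (adjusted p = 0.296). The other 7 members lay between -0.08 for PSMB9 and 0.07 for TAP2. HLA-B was nearly the same in the 3 ALIS libraries, at 389, 388 and 387 CPM.

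Some alternatives did give calls with alisertib: those without libraries that stand apart, and the GC and length offset. They also called more genes in all, 2598 of 21061 tested without CTL 1 and 5073 of 20711 without the 4 libraries. The offset called 3648 of 20571, against 1387 in the main fit, and the members' calls are to be read against those counts. Without CTL 1 TAPBP was -0.29 (edgeR adjusted p = 0.0439). Without those 4 libraries TAP1 was 0.11 higher on the log2 scale (edgeR adjusted p = 0.0494), TAPBP -0.21 (adjusted p = 7.67e-05) and HLA-B -0.15 (adjusted p = 0.00268). With the GC and length offset TAP1 was 0.19 (adjusted p = 0.00311) and TAPBP -0.12 (adjusted p = 0.0169). That offset is fitted to every library, so it also takes out GC and length trends that differ between the treatment groups. The ratio of TAPBP to TAP1 within a library is made from these same TAPBP and TAP1 values, so its direction is no separate evidence. It was 1.6 ± 0.107 in CTL and 1.29 ± 0.0828 in ALIS, without overlap between libraries (exact permutation p = 0.1, the smallest possible).

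In TGFβ-treated cells alisertib likewise gave no member a call. Between Combination and TGFB 0 of 9 were called by edgeR and by DESeq2, none had an unadjusted p under 0.05, and 2.08% of all tested genes were called. TAP1 was 66.7, 73 and 69.8 CPM in Combination and 64.9, 67.1 and 60.8 CPM in TGFB, with a log2 fold change of 0.12 ± 0.06 (edgeR adjusted p = 0.433). TAPBP was -0.16 ± 0.09 (adjusted p = 0.536). With the GC and length offset both were called, TAP1 at 0.17 (adjusted p = 0.0141) and TAPBP at -0.12 (adjusted p = 0.0357), and without the 4 libraries TAPBP was called at -0.12 (adjusted p = 0.0314). Over all tested genes these settings called 1720 of 20571 and 1434 of 20711, against 428 in the main fit. The TAPBP to TAP1 ratio was 2.25 ± 0.155 in Combination and 2.75 ± 0.00807 in TGFB, again without overlap. Over the 6 ratios and 5 comparisons computed, 30 in all, no Benjamini-Hochberg adjusted exact p was under 0.214.

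Cells given both agents were also set against CTL. Of the 9 members 4 were called, 1 higher and 3 lower, where 39.7% of all tested genes were called, 19.4% higher and 20.3% lower: TAP2 (log2 fold change -0.31 ± 0.06, edgeR adjusted p = 0.000601), PSMB9 (-0.46 ± 0.10, adjusted p = 0.00159), TAP1 (-0.18 ± 0.06, adjusted p = 0.0284) and TAPBP (0.31 ± 0.09, adjusted p = 0.0172). This comparison shares its CTL libraries with that of TGFβ alone. TAP1 and TAPBP each lost the call in 5 of 20 alternatives. TAP1 lost it without CTL 2, CTL 3, Combination 10 or Combination 12 and with only the compared groups in the fit (edgeR adjusted p up to 0.11). TAPBP lost it without CTL 1, Combination 11 or Combination 12, with only the compared groups in the fit and with no filter on low counts (adjusted p up to 0.11). NLRC5 gained a call without CTL 1 (-0.37, adjusted p = 0.0133), without the 4 libraries that stand apart (-0.29, 0.000294) and with the GC and length offset (-0.34, 1.22e-05). HLA-B gained one without the 4 libraries (-0.09, adjusted p = 0.0379) and with the offset (-0.21, 0.000139), and B2M without the 4 libraries (-0.11, adjusted p = 0.0132) and without Combination 10 alone. The TAP1 libraries of the groups overlapped, with Combination 11 at 73 CPM and CTL 1 at 72.9 CPM.

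**Figure D3:**
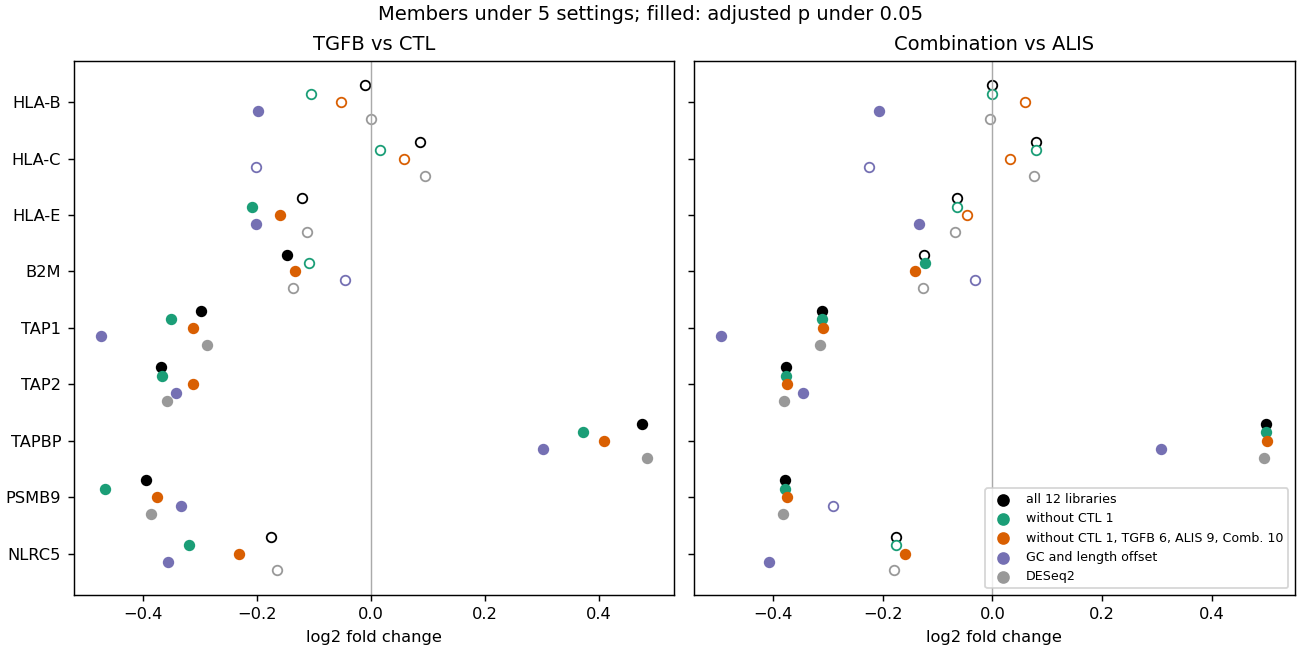
Log2 fold changes (x axis) of the 9 genes in the 2 comparisons for TGFβ under 5 settings (colours), filled where the adjusted p is under 0.05. TAP1, TAP2 and TAPBP are filled in all settings shown, HLA-E and NLRC5 with TGFβ alone are filled only in 3 of the 5, and B2M moves from -0.15 to -0.05 with the GC and length offset.

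The rest of the pathway was read from lists of genes by role. Among the other proteasome parts and trimming enzymes, 3 of 7 tested fell with TGFβ, beside 20.1% of all tested genes, and none rose: PSMB8, PSME1 and PSME2. PSMB8, the inducible counterpart of PSMB5, went from 52.1 ± 2.94 CPM in CTL to 35.7 ± 1.21 CPM (mean ± SD, n = 3), a log2 fold change of -0.54 ± 0.06 (edgeR adjusted p = 2.1e-06) that exceeded that of PSMB9. PSME1, a subunit of the PA28 activator, went from 121 ± 4.2 to 90.4 ± 3.82 CPM (-0.42 ± 0.04, adjusted p = 2.84e-06), and PSME2, its partner, was -0.17 ± 0.05 (adjusted p = 0.0138), which was lost without TGFB 4 or TGFB 6 (adjusted p up to 0.0532). PSMB10, the third inducible subunit, was low at 6.41 ± 1.28 CPM and not called (0.12 ± 0.19, adjusted p = 0.671). The peptide trimming enzymes ERAP1, ERAP2 and LNPEP were not called.

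The constitutive catalytic subunits PSMB5, PSMB6 and PSMB7 gave 0 of 3 calls by edgeR and by DESeq2, with 1 at an unadjusted p under 0.05, where 38.6% of all tested genes were called. Among the 11 other core subunits 3 fell (20.1% of all tested genes did), PSMA6 most (-0.44 ± 0.07, edgeR adjusted p = 0.000233). The ratio of PSMB8 to PSMB5 per length went from 0.293 ± 0.00463 in CTL to 0.205 ± 0.00403 with TGFβ, and from 0.305 ± 0.00339 in ALIS to 0.212 ± 0.00783 in Combination. That of PSMB9 to PSMB6 went from 0.0514 ± 0.00116 in ALIS to 0.0364 ± 0.001 in Combination. In both pairs of groups the libraries did not overlap, and p was 0.1 by the exact permutation test. Smaller shifts of ALIS against CTL met the same mark, without overlap and at an exact permutation p of 0.1. There PSMB9 to PSMB6 was lower (fold 0.893) and PSMB8 to PSMB5 higher (fold 1.04). PSMB10 to PSMB7 showed no such shift with TGFβ (0.0302 ± 0.00802 in CTL and 0.031 ± 0.00616 with TGFβ).

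Of the listed chaperones of the loading complex and the endoplasmic reticulum 3 of 5 rose with TGFβ, where 18.5% of all tested genes did, and none fell. CALR, which holds the heavy chain until it is loaded, went from 1573 ± 24.3 to 2163 ± 38.8 CPM (log2 fold change 0.46 ± 0.04, edgeR adjusted p = 1.9e-07). PDIA3, the disulfide partner of tapasin, rose by 0.43 ± 0.06 (adjusted p = 5e-05) and HSPA5, a general chaperone of the endoplasmic reticulum, by 0.41 ± 0.05 (adjusted p = 2.47e-05). Not called were CANX at 0.01 ± 0.05 (adjusted p = 0.896) and the tapasin relative TAPBPL at -0.01 ± 0.19 (adjusted p = 0.978). In cells with alisertib the same 3 chaperones were called higher, CALR by 0.52 ± 0.04 (adjusted p = 5.99e-08).

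**Figure D4:**
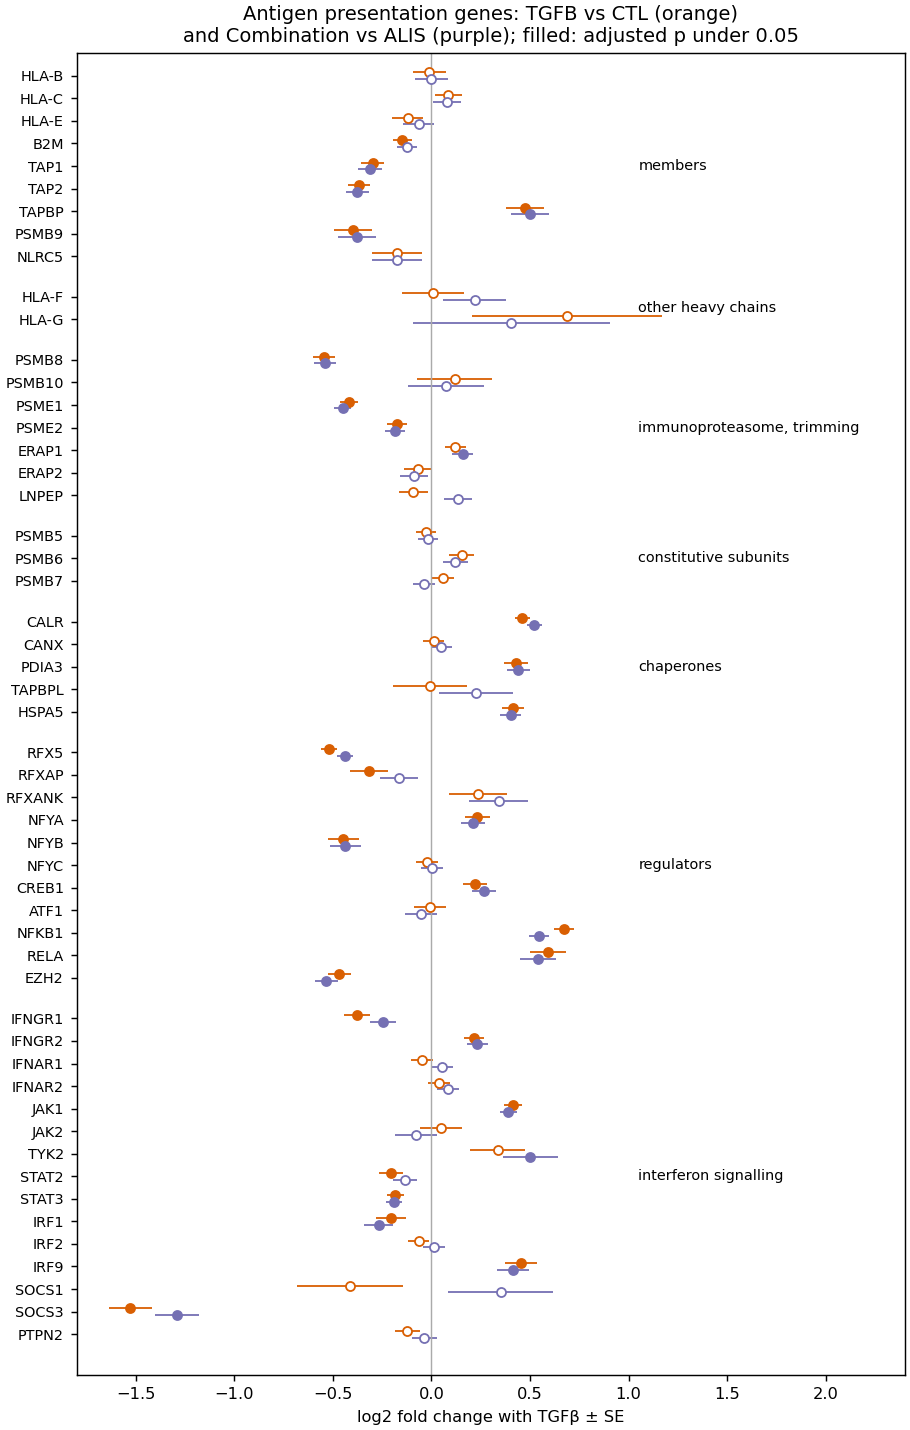
Log2 fold changes with TGFβ ± SE (x axis) for the reported genes of 7 lists, in cells without alisertib (orange) and with it (purple), filled where the adjusted p is under 0.05. PSMB8, PSME1 and the TAP genes lie to the left, and TAPBP, CALR, PDIA3 and HSPA5 to the right, in both.

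Factors that act on class I promoters split. Of 11 tested 4 rose and 4 fell with TGFβ, against 18.5% and 20.1% of all tested genes. RFX5, the DNA-binding part of the RFX complex on the X box, went from 107 ± 1.71 to 74.4 ± 1.61 CPM (log2 fold change -0.52 ± 0.04, edgeR adjusted p = 1.32e-07). NFYB, a part of NF-Y on the CCAAT box, was -0.45 ± 0.08 (adjusted p = 0.000383). Not all factors of the X and Y boxes fell. NFYA, another part of NF-Y, went from 125 ± 11.7 CPM in CTL to 147 ± 5.1 CPM with TGFβ (mean ± SD). CREB1 went from 63.8 ± 1.92 to 74.4 ± 5.9 CPM, and for both genes the libraries did not overlap. The κB factors rose: NFKB1 by 0.67 ± 0.05 (adjusted p = 1.12e-07) and RELA by 0.59 ± 0.09 (adjusted p = 0.000116). EZH2, the methyltransferase of a repressive histone mark, was -0.47 ± 0.06 (adjusted p = 1.38e-05).

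Of 16 interferon signalling genes tested 3 rose and 6 fell, again against 18.5% and 20.1% of all tested genes. IRF1, an ISRE-binding factor, went from 36.2 ± 2.77 to 31.5 ± 1.35 CPM (log2 fold change -0.20 ± 0.07, edgeR adjusted p = 0.0432). IRF1 lost its call in 10 of 20 alternatives, with an adjusted p of up to 0.179. SOCS3, an inhibitor of JAK kinases, had the largest change of the list at -1.53 ± 0.11, and IRF9, the DNA-binding part of ISGF3, rose by 0.46 ± 0.08 (adjusted p = 0.000412). None of the 7 interferon ligand genes listed passed the filter for testing. IFNB1 and IFNG had no read in any of the 12 libraries, which allows at most 0.032 CPM in the shallowest (3 counts, counting error only). With alisertib against CTL edgeR called none of these 16 signalling genes (5 at an unadjusted p under 0.05, and 1 by DESeq2), none of the 11 promoter factors (2 and 0) and none of the 5 chaperones (1 and 1). Of all tested genes 6.74% were called in that comparison, so lists this short would hold few calls at that share.

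The class II list crosses this pathway at RFX5 and at its chromosomal position. All 10 class II genes tested fell with TGFβ, where 20.1% of all tested genes did. Their median was -2.70 on the log2 scale, led by CIITA (-4.94 ± 0.18), against -0.15 for the 9 class I members. The surface ligand CD274, which restrains T cells, was not called with TGFβ (0.06 ± 0.07, edgeR adjusted p = 0.522) and rose with alisertib by 0.32 ± 0.07 (adjusted p = 0.0149), a call that 4 of 20 alternatives lost (adjusted p up to 0.0832). Of the class I-like genes HFE, a regulator of iron uptake, was lower with TGFβ (-0.25 ± 0.05, adjusted p = 0.0022) and with alisertib (-0.37 ± 0.05, adjusted p = 0.00102), both in comparison with the same CTL libraries.

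Of the 9 members 7 lie on chromosome 6, and 4 of them in the class II region of the MHC and beside it. In hg19, TAP2 lies at chr6:32789610-32806557, PSMB9 at chr6:32811913-32827362, TAP1 at chr6:32812986-32821755 and TAPBP, farther on, at chr6:33267471-33282164. The heavy chains lie apart from these, HLA-E at chr6:30457244-30461982, HLA-C at chr6:31236526-31239907 and HLA-B at chr6:31321649-31324965. B2M is at chr15:45003675-45011075 and NLRC5 at chr16:57023397-57117443.

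From HLA-DOB to TAPBP the table has 43 genes, of which 31 were tested. With TGFβ 5 were higher, 13 lower and 13 not called, where 18.5% of all tested genes were higher and 20.1% lower. TAP2, PSMB8, PSMB9 and TAP1, which lie side by side, were between -0.54 and -0.30, and the class II genes next to them ran from HLA-DOA (-4.10 ± 0.25) to HLA-DPA1 (-2.33 ± 0.08). HLA-DOB, a class II gene on the other side of TAP2, was -0.39 ± 0.12. BRD2, which lies among the class II genes, was at 0.07 ± 0.04 (edgeR adjusted p = 0.204). TAPSAR1, a transcript that overlaps TAP1 and PSMB9, was -0.71 ± 0.10 at 4.78 CPM on average. At the other end TAPBP had as its direct neighbour RGL2, which rose by 0.56 ± 0.12.

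**Figure D5:**
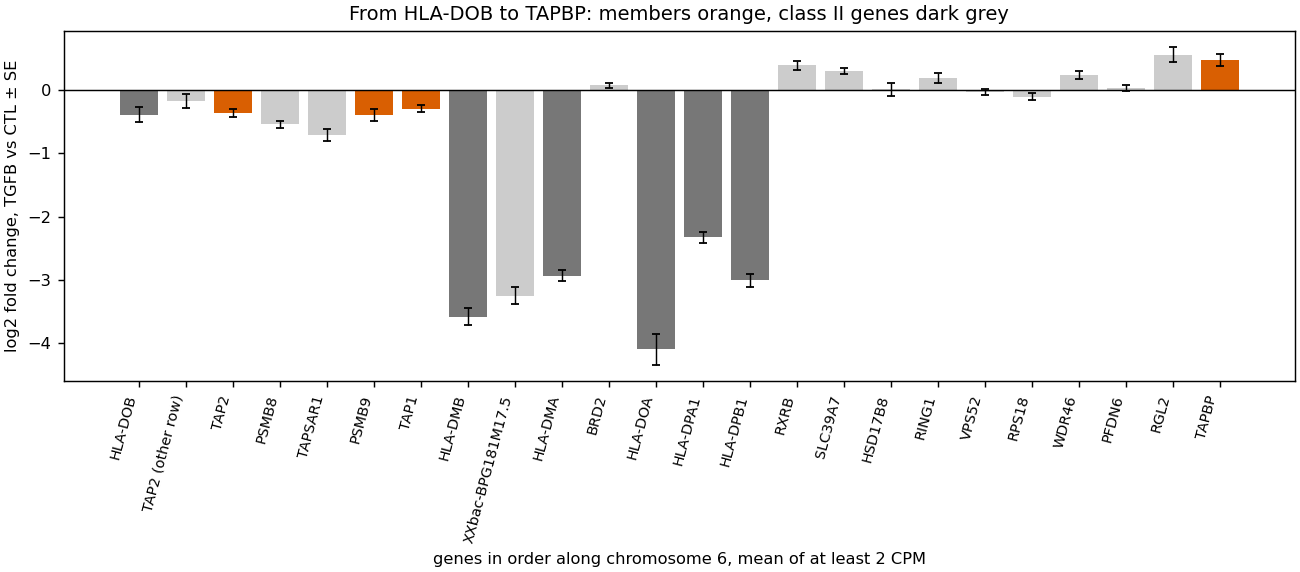
Log2 fold change with TGFβ against untreated ± SE (y axis) for the tested genes from HLA-DOB to TAPBP that averaged at least 2 CPM, in their order along chromosome 6 (x axis, not to scale). Members are orange and class II genes dark grey. The 3 members TAP2, PSMB9 and TAP1 show small falls beside the class II genes from HLA-DMB to HLA-DPB1, which fell by over 2, and TAPBP at the far end rose.

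The pattern over the 12 libraries was also compared gene by gene, as the root mean square difference of centred log2 levels among genes that averaged at least 5 CPM. The genes most like NLRC5 were ST3GAL2 (0.0487), ACTN4 (0.0521) and ABHD11 (0.0536), none of them a member, where NLRC5 itself had an SD of 0.18. The genes most like the mean of the members were LSM4 (0.0341), ANKS1A (0.0359) and NFRKB (0.0383). The closest pair of members was TAP1 and TAP2, which differed by 0.072: TAP1 stood at rank 51 of 11305 candidates for TAP2 and TAP2 at rank 36 for TAP1. These likenesses describe libraries that share treatment, depth and GC deviation.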

How the data were processed

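The series has 12 RNA-seq libraries from MDA-MB-231. Per the labels' protocols, a miRNeasy kit gave the RNA and TruSeq RNA v2, a kit without strand information, the libraries. The submitters' processing notes name bcl2fastq, TopHat, Subread, featureCounts and the build hg19, while versions, settings and the annotation are not given in the sources used here. In the table deposited by the authors, each gene has whole-number read counts, not normalised, beside its position and length, and RPKM values, which the authors made from the counts and which were not used for tests.

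The deposited counts entered edgeR 4.0.16 (R 4.3.3): filterByExpr (20571 of 57773 genes), TMM factors and 1 robust quasi-likelihood fit of 4 group means to all 12 libraries (8 residual degrees of freedom). The 5 pairwise comparisons and the interaction, the alisertib effect with TGFβ minus that without it, were tested with Benjamini-Hochberg adjustment over all tested genes, and a gene was called at an adjusted p under 0.05. The standard error of a log2 fold change is its size over the root of the F value. Levels are given as CPM, counts scaled to a common library size by TMM factors, or RPKM, the same divided by the deposited gene length. Ratios within libraries were compared by two-sided exact permutation tests, whose smallest p with 3 libraries against 3 is 0.1. The fit was tested on simulated data. No 2 libraries of a group agreed within sampling noise, which does not show that they are separate cultures. Each was counted as 1 replicate. Depth was 93701658 to 120619368 counts per library, and the floor of 3 counts covers counting error only.

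The members, the 17 gene lists (128 genes, 109 tested) and the tests were chosen with earlier results of these data known. All members were named, and of each list up to 4 called genes with the largest changes and a few fixed genes. BRD2, TAPSAR1 and RGL2 were named for their position after their values were seen. CANX, TAPBPL, ERAP1, ERAP2, LNPEP, PSME2, NFYA, CREB1, CD274 and HFE, where they fall outside that rule, were also named after their values were seen. Some listed genes are not reported here. The 20 alternatives were a fit of the compared groups only, DESeq2 1.42.0, upper-quartile and RLE factors, no filter on low counts, each library left out in turn, the 4 libraries that stand apart left out together, a per-library offset smoothed over GC content and length (GC content was had for 95.5% of tested genes) and summed HLA rows. The other TAP2 row was added after seeing the data. Promoter windows came from the RefSeq table for GRCh38.p14.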

Additional observations from a re-analysis of the deposited data

How the results depend on the processing

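No paired analysis was possible because the replicate numbers run from 1 to 12 and are not shared between groups. The number of members called with TGFβ against CTL (5), in Combination against ALIS (4) and in the interaction (0) stayed within 1.5 times under every alternative run. Which members were called did change. With the GC and length offset TGFβ against CTL gained HLA-B, HLA-E and NLRC5 and lost B2M (7 called). Combination against ALIS gained the same genes under that offset and lost PSMB9 (6 called). For alisertib against CTL (0 members called) the count was 0 to 1 when libraries were left out in turn, 1 without CTL 1 (TAPBP), 3 without the 4 libraries that stand apart (HLA-B, TAP1, TAPBP) and 2 with the GC and length offset (TAP1, TAPBP). For Combination against CTL (4) it was 2 with only the compared groups in the fit and 2 without Combination 12 (TAP2 and PSMB9 in both), 2 to 4 over the libraries left out, and 7 without the 4 libraries (HLA-B, B2M and NLRC5 added). For Combination against TGFB (0) it was 1 without the 4 libraries (TAPBP) and 2 with the GC and length offset (TAP1, TAPBP). The cause of these differences was not tested. No called member changed sign. With 2 libraries a group 4 residual degrees of freedom are left. Over all tested genes the number of calls ranged from 623 to 5073 for alisertib against CTL (1387), from 153 to 1720 for Combination against TGFB (428) and from 19 to 744 for the interaction (58). For TGFβ against CTL it ranged from 6511 to 9569 (7940) and for Combination against CTL from 6591 to 9981 (8169). For Combination against ALIS it ranged from 6239 to 10098 (7901). Calls of members under a log2 fold change of about 0.2, which are B2M with TGFβ and TAP1 in Combination against CTL, lost the threshold in 7 and 5 of 20 alternatives, and TAPBP in Combination against CTL (0.31) in 5 of 20. All 9 members had at least 1272 counts in every library, so depth does not limit these values.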
